A study of Rattus norvegicus with 12 samples.

Results

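F13a1, Il17b and Mfap3l are 3 genes whose expression stood well above that of articular cartilage in the resting zone of the rat growth plate. They were taken from 14300 genes on the array because their expression in the resting zone (RZ) exceeded that in the intermediate/deep articular zone (IDZ) by some of the widest margins in the data. Each of the 3 symbols has 1 transcript cluster, the set of probes that the array summarizes to 1 value. The genes were chosen by their measured RZ minus IDZ difference, which is therefore given as a description without a test. The data are 12 Affymetrix Rat Gene 1.0 ST arrays of RNA, 4 for RZ, 4 for IDZ and 4 for the superficial zone of articular cartilage (SZ). All samples came from the proximal tibial epiphysis of 8 Sprague-Dawley rats at 10 days of age, cut out by hand from eosin-stained sections. Each RZ and each IDZ sample pooled 4 tissues of 2 animals, and an RZ and an IDZ sample of the same number shared their animals. Each SZ sample held 2 tissues of 1 animal, drawn from the last 2 of these animal pairs. Expression is given on the log2 scale, on which a difference of 1 is a doubling.

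The resting zone lies at the top of the growth plate and holds slowly dividing chondrocytes that feed the columns of proliferating cells below, which later enlarge and mineralize their matrix. F13a1 encodes the catalytic A subunit of coagulation factor XIII, a transglutaminase that thrombin activates and that crosslinks fibrin and matrix proteins. In the chicken growth plate it is known from hypertrophic chondrocytes, and macrophages and platelets also carry it. Il17b encodes interleukin 17B, a secreted cytokine of the IL-17 family that binds the receptor IL-17RB. In the mouse it has been found in chondrocytes of healing fractures. Mfap3l encodes a membrane protein with immunoglobulin domains that resembles microfibril-associated protein 3 and has no settled role in cartilage.

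The promoter windows of the 3 genes are shown because all 3 genes were high in the same zone. The sequences are those of RefSeq (rat assembly GRCr8), from 250 bases before to 50 bases after a transcription start. That of F13a1 is chr17:28020947-28021246 on the plus strand, that of Il17b chr18:57411282-57411581 on the plus strand, and that of Mfap3l chr16:34441660-34441959 on the minus strand. The start used for Mfap3l lies inside the annotated span of the gene. Capitals mark GGAAGT, the core letters bound by ETS factors, in F13a1 and Mfap3l, and CCACCCA, core letters bound by GLI factors, in Il17b.
F13a1: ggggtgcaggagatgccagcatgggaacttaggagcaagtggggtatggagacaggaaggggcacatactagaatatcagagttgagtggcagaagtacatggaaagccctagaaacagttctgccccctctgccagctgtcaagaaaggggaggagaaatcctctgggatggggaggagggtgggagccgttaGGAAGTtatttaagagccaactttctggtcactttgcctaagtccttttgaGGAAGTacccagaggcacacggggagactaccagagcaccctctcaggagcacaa
Il17b: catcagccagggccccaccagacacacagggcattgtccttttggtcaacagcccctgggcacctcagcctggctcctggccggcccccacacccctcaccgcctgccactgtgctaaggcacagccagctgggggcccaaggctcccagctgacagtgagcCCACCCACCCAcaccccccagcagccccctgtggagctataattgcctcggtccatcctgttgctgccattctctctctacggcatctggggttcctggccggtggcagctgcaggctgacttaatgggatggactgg
Mfap3l: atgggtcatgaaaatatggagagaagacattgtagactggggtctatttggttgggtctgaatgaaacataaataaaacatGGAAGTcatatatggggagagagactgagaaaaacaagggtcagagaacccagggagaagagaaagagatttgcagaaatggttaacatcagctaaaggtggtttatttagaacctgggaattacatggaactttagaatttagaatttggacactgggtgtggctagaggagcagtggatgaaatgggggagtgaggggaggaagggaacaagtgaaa
The F13a1 window held GGAAGT at 56 and at 5 bases before the start, and the Mfap3l window held it at 169 bases before the start. Il17b had 2 overlapping copies of CCACCCA, at 88 and at 84 bases before the start. GGAAGT was present on either strand in 22.6% and CCACCCA in 8.87% of all 33469 promoter windows of the same length. The remaining 6 motifs searched on both strands had no match in these 3 windows. They were TATAAA, bound by the TATA-binding protein (in 14.2% of all windows), CCAAT, bound by NF-Y (37.5%), GGGCGG, bound by SP1 (33.1%), TGTGGT, bound by RUNX factors (17.3%), AACAAT, bound by SOX factors (11.7%), and TGANTCA, bound by AP-1 (7.33%). GC content was 53.0% in the F13a1 window, 64.7% in the Il17b window and 41.7% in the Mfap3l window, beside a median of 51.7% over all windows. None of the 8 motifs was shared by all 3 genes.

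Genes known to differ between the zones followed the labels. Prg4, the lubricant of the joint surface, averaged 5.68 ± 0.501 in RZ, 10.31 ± 0.973 in IDZ and 12.78 ± 0.194 in SZ (SD, n = 4 each). Markers of chondrocytes, such as the cartilage proteoglycan Acan, did not separate RZ from IDZ. Of 13 chondrocyte genes measured, 0 passed between these zones at an adjusted p under 0.05 in limma (1 at an unadjusted p under 0.05), and 12 were higher in RZ and in IDZ than in SZ. The median over all clusters lay between 6.76 and 6.90 on the 12 arrays, and SZ replicate 4 had the narrowest interquartile range (2.24, against 2.50 to 2.91 on the other arrays).

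F13a1 had the widest RZ to IDZ margin of the 14300 genes with a cluster of a single symbol, and 2 clusters without such a symbol had a wider one. The study that reported the data lists Hhip and a locus without a gene name above F13a1 in this comparison. Hhip had no cluster of a single symbol here. On the RZ arrays F13a1 reached 10.35, 10.68, 10.75 and 11.24 in replicates 1 to 4. The corresponding IDZ values were 7.78, 7.81, 7.71 and 8.43, and the SZ values were 7.83, 8.00, 7.52 and 7.10. Every RZ array lay above every IDZ and SZ array, whereas the IDZ and SZ arrays overlapped. The zone means were 10.76 ± 0.365 in RZ, 7.93 ± 0.337 in IDZ and 7.61 ± 0.395 in SZ (SD, n = 4 each). RZ exceeded IDZ by 2.82 (SE 0.215), or 7.08-fold, and SZ by 3.15 (SE 0.215), or 8.86-fold. Within the 4 pairs of animals the margin of RZ over IDZ was 5.97-, 7.31-, 8.25- and 6.97-fold. Pair 4 gave the highest F13a1 value both in RZ and in IDZ. The order of the zone means was RZ, IDZ and SZ, with overlapping arrays in IDZ and SZ. The choice of the members favoured low IDZ values, which lowers IDZ minus SZ, so a difference that does not pass here has no reading for F13a1 or Mfap3l. For F13a1 the IDZ minus SZ difference was 0.32 (95% confidence interval -0.14 to 0.78, limma adjusted p = 0.319).

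Il17b was the one member with a step between each zone and the next. Its RZ values were 10.48, 10.86, 10.75 and 10.75 in replicates 1 to 4. Its IDZ values were 8.25, 8.47, 8.52 and 8.80, and its SZ values were 7.09, 7.13, 7.52 and 7.57. No array of a zone overlapped with an array of another zone. Means were 10.71 ± 0.160 in RZ, 8.51 ± 0.229 in IDZ and 7.33 ± 0.253 in SZ (SD, n = 4 each). RZ exceeded IDZ by 2.20 (SE 0.140), or 4.60-fold, and SZ by 3.38 (SE 0.140), or 10.4-fold. The margin over IDZ was 4.72-, 5.22-, 4.70- and 3.86-fold in the 4 pairs of animals. Pair 4 had the narrowest margin, with the highest IDZ value of the zone. IDZ in turn exceeded SZ by 1.18 (SE 0.140), or 2.27-fold (limma adjusted p = 1.68e-05, 95% confidence interval 0.88 to 1.48). The choice of the gene favoured a low value in IDZ, so this difference runs against the way the gene was chosen. The adjusted p stayed between 5.9e-06 and 0.000662 over 20 other settings of the analysis.

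Mfap3l was high in RZ and low in both articular zones, which overlapped. Its RZ values were 9.08, 8.68, 8.41 and 8.79 in replicates 1 to 4. Its IDZ values were 6.40, 6.75, 6.48 and 6.31, and its SZ values were 6.31, 6.98, 6.95 and 6.20. The RZ arrays overlapped with neither articular zone, and the IDZ range lay within the SZ range. Means were 8.74 ± 0.277 in RZ, 6.49 ± 0.187 in IDZ and 6.61 ± 0.414 in SZ (SD, n = 4 each). RZ exceeded IDZ by 2.25 (SE 0.185), or 4.76-fold, and SZ by 2.13 (SE 0.185), or 4.36-fold. In the 4 pairs of animals the margin over IDZ was 6.38-, 3.81-, 3.80- and 5.56-fold, which made it the member that varied most between pairs. The IDZ minus SZ difference was -0.13 (95% confidence interval -0.52 to 0.27, limma adjusted p = 0.681). As for F13a1, this value carries the bias of the choice toward a low IDZ level. Both articular means also lay under 6.81, the median of all values in the data. The absence of a call between them is weak information.

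**Figure D1:**
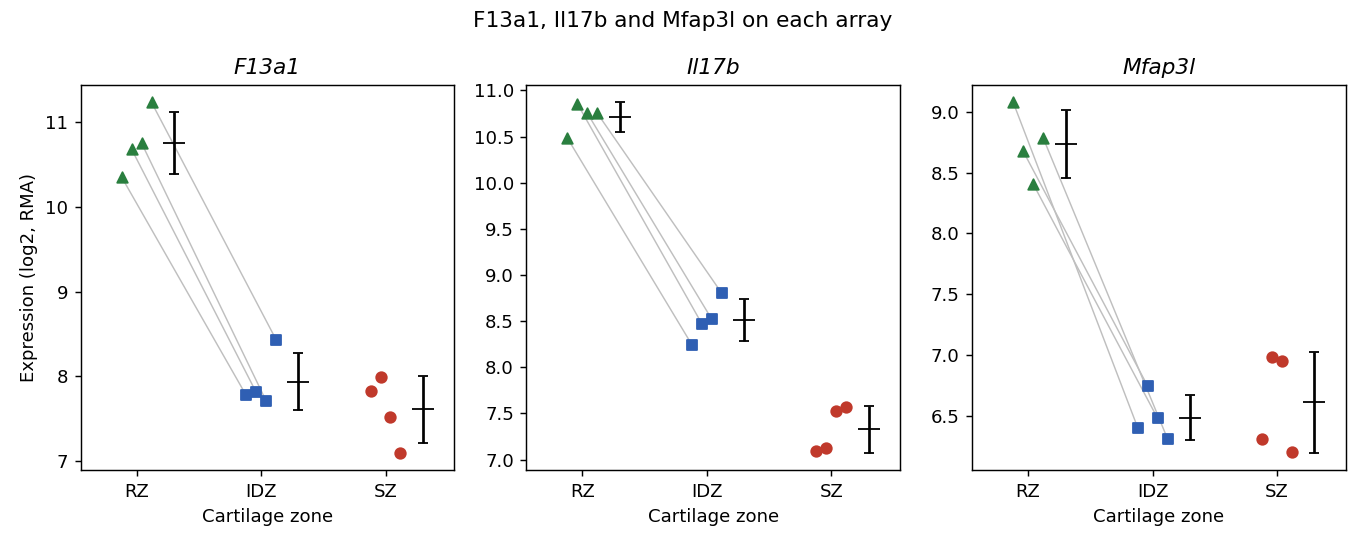
Expression (log2) of F13a1, Il17b and Mfap3l on each array of the resting zone (RZ), the intermediate/deep zone (IDZ) and the superficial zone (SZ). Lines join RZ and IDZ samples of the same animals, bars give mean ± SD (n = 4), and the scale differs between panels. In each panel the RZ arrays sit above all others, and the IDZ and SZ arrays of Il17b alone are apart.

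All 3 members had RZ arrays that overlapped with no IDZ array, which 11.1% of all 27342 clusters shared in that direction. Nothing is read from that count, since this contrast picked the genes. All 3 also had no overlap between RZ and SZ, with RZ higher, as did 12.3% of all clusters. The SZ arrays took no part in the choice, but the RZ arrays did, so the margins over SZ are likewise given without a test. Between IDZ and SZ, 1 of the 3 genes was without overlap, with IDZ higher, as were 12.1% of all clusters. The same gene, Il17b, was also the 1 of 3 that passed the test, against 11.2% of all clusters higher and 11.8% lower in IDZ. The mean of RZ and IDZ together exceeded SZ by 1.74 for F13a1, 2.28 for Il17b and 1.00 for Mfap3l. These values hold the RZ arrays too and were left without a test.

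Ordered by the RZ minus IDZ difference, F13a1 ranked 1, Mfap3l 7 and Il17b 8 among the 14300 genes with a cluster of a single symbol. Over all 27342 clusters, named or not, the ranks were 3, 12 and 13 for the same genes. Behind F13a1 stood Tnni2, the inhibitory troponin of fast muscle fibers, at 2.75, and the guidance factor Ntn1 at 2.66. Just above Mfap3l (2.25) and Il17b (2.20) stood Fa2h, a fatty acid hydroxylase, at 2.40 and Slc40a1, the cellular iron exporter, at 2.31. Just below them stood the growth factor Bmp7 at 2.10 and Serpine2, a secreted inhibitor of thrombin, at 2.05. Of these neighbours, Ntn1 averaged 7.72 in IDZ and 8.53 in SZ, and Slc40a1 averaged 8.32 in IDZ and 10.12 in SZ. In the plot of the 30 genes with the widest RZ to IDZ margin, the IDZ minus SZ difference of Il17b lay below those of Bmp3 and Sfrp5 and above the other genes.

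**Figure D2:**
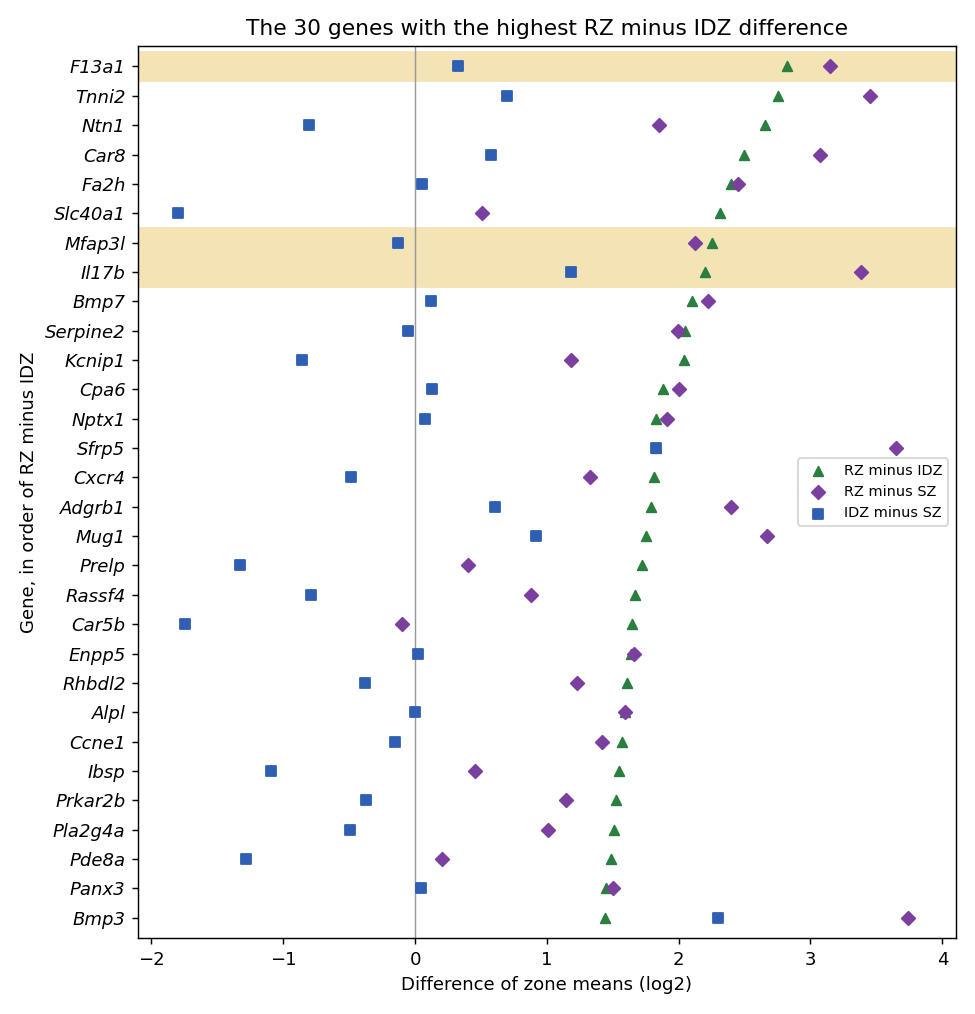
Differences of zone means (log2, x axis) for the 30 genes with the highest RZ minus IDZ difference, in that order from the top, with the 3 members shaded. Triangles give RZ minus IDZ, diamonds RZ minus SZ and squares IDZ minus SZ. The square of Il17b stands at 1.18, that of F13a1 at 0.32 and that of Mfap3l at -0.13.

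The genes whose profiles lay nearest to those of the members were found by the root mean square difference between log2 values, each gene centred on its own mean, over the 12 arrays. A small value means that the profiles nearly coincide. The measure includes the RZ and IDZ arrays that chose the members. Genes with a wide RZ to IDZ margin therefore lie near them partly through that choice. For F13a1 the nearest was Car8, a carbonic anhydrase relative without enzyme activity (0.267), then Tnni2 (0.422), Serpine2 (0.504), Bmp7 (0.510) and Fa2h (0.513). For Il17b they were the secreted Wnt antagonist Sfrp5 (0.339), Car8 (0.349), Tnni2 (0.376), the transmembrane protein Tmeff1 (0.486) and the adhesion receptor Adgrb1 (0.494). Sfrp5 stepped down through the zones as Il17b did, with 12.17 in RZ, 10.35 in IDZ and 8.52 in SZ. Mfap3l lay nearest to Bmp7 (0.215), followed by Serpine2 (0.324), the carboxypeptidase Cpa6 (0.341), the mineralization enzyme Alpl (0.364) and the pentraxin Nptx1 (0.368). Alpl averaged 10.30 in RZ, 8.70 in IDZ and 8.71 in SZ. Its articular means lay close together, as did those of Mfap3l, for which that closeness has no reading. No member was among the 5 genes nearest to another. F13a1 and Il17b differed by 0.513, each at order 6 from the other. F13a1 and Mfap3l differed by 0.582, with Mfap3l at order 7 from F13a1 and F13a1 at order 38 from Mfap3l. Il17b and Mfap3l differed by 0.708, with Mfap3l at order 25 from Il17b and Il17b at order 113 from Mfap3l. The choice of measure matters here, since after scaling each profile to unit variance 2 of the 5 genes nearest to F13a1, 1 of the 5 nearest to Il17b and 2 of the 5 nearest to Mfap3l were still among the first 5.

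In the families and pathways of the members, more genes passed lower than higher in RZ against IDZ. Of 63 genes measured in 7 lists, 2 were higher in RZ and 8 were lower. Most of the lower ones lay in the lists of Mfap3l, with 2 microfibril-associated genes and 4 partners of microfibrils and elastic fibers. Over all clusters, 3.95% were higher and 2.78% lower in RZ. The transglutaminase list also holds F13b, a partner of F13a1 rather than a transglutaminase. Of its 9 genes, 6 had a cluster of their own symbol. In limma 0 of the 6 passed between RZ and IDZ in either direction, also at an unadjusted p under 0.05. With plain one-way contrasts 0 passed as well. The share of all clusters was 3.95% higher and 2.78% lower in RZ. The median RZ minus IDZ difference of the list was 0.02, beside -0.03 over all clusters. Tgm2, the widely expressed tissue transglutaminase, ran the other way from F13a1 toward the joint surface. It averaged 7.95 ± 0.180 in RZ, 7.84 ± 0.092 in IDZ and 9.55 ± 0.453 in SZ. It was lower than in SZ by 1.60 in RZ and by 1.71 in IDZ, both passing the limma test, the 1 gene of the 6 that did. Among all clusters 10.0% were lower and 11.1% higher in RZ than in SZ. F13b, the carrier subunit of plasma factor XIII, averaged 4.84 in RZ, 4.89 in IDZ and 4.83 in SZ, and passed in no comparison. Most of the 6 genes, F13b among them, averaged under 6.81, the median of all values in the data, in every zone. For these dim genes the absence of a call is weak information.

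Of 13 genes measured among thrombin, its receptor, fibrin and other substrates of factor XIII, 1 was lower and 0 were higher in RZ than in IDZ. That gene was A2m, the broad protease inhibitor alpha-2-macroglobulin, itself a substrate. It averaged 8.38 ± 0.130 in RZ, 9.49 ± 0.103 in IDZ and 7.23 ± 0.373 in SZ, with no overlap between the arrays of any zones. Against SZ, 2 genes were higher and 4 lower in RZ, and 2 were higher and 4 lower in IDZ. F2r, the main thrombin receptor, was lower by 2.23 in RZ and by 2.09 in IDZ than in SZ, where it averaged 8.47. F3, tissue factor, which starts the cascade that makes thrombin, averaged 6.40 in RZ, 6.96 in IDZ and 8.12 in SZ and was lower than in SZ in both zones. F5, the cofactor of thrombin formation, averaged 6.59 in RZ, 6.82 in IDZ and 6.12 in SZ and was higher than in SZ by 0.47 in RZ (limma adjusted p = 0.018) and by 0.69 in IDZ. The RZ call of F5 was lost with a fixed block for animals (adjusted p = 0.111) and without RZ replicate 2 (0.055), within a range of 0.00509 to 0.111 over 20 settings.

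For the relatives and receptor of Il17b the arrays gave dim signals. Il17a, Il17f and Il17rb averaged under 6.81, the median of all values in the data, in every zone, so the absence of a call is weak information about them. Of 5 other IL-17 ligands, Il17a and Il17f had clusters of their own, and 0 of the 2 passed in any of the 3 comparisons in limma, with 0 at an unadjusted p under 0.05 and 0 with plain one-way contrasts. Il17rb, the receptor of IL-17B, averaged 5.45 ± 0.141 in RZ, 5.22 ± 0.044 in IDZ and 5.19 ± 0.140 in SZ. Its RZ minus IDZ difference was 0.23 (limma adjusted p = 0.207), its RZ minus SZ difference 0.26 (adjusted p = 0.074) and its IDZ minus SZ difference 0.03 (adjusted p = 0.854). The arrays of RZ and IDZ did not overlap for Il17rb, and the difference did not pass. Of 7 receptors and adaptors measured, 0 passed between RZ and IDZ in limma (1 higher and 1 lower at an unadjusted p under 0.05, 0 with plain one-way contrasts), 1 was higher in RZ than in SZ, and 1 was higher and 1 lower in IDZ than in SZ. Traf3, an adaptor that restrains IL-17 receptor signaling, was the higher one in both zones, at 8.18 in RZ, 8.04 in IDZ and 7.36 in SZ. Il17ra, the receptor chain shared by most IL-17 cytokines, was lower in IDZ than in SZ by 0.53 (limma adjusted p = 0.025). That call failed in 8 of 20 other settings, with adjusted p between 0.000147 and 0.0836, among them those without IDZ replicate 2, 3 or 4 (0.0636, 0.0524 and 0.0587) and without SZ replicate 1 or 2 (0.0836 and 0.0793).

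Of 20 genes known to respond to IL-17 cytokines, 2 were higher and 1 was lower in RZ than in IDZ, with a median difference of -0.13. Lcn2, an iron-scavenging protein of innate defence, averaged 9.31 ± 0.255 in RZ, 7.97 ± 0.147 in IDZ and 8.45 ± 0.910 in SZ. Its RZ minus IDZ difference of 1.35 passed the limma test (adjusted p = 0.017), and the arrays of these zones did not overlap. The call was lost in 7 of 20 other settings, with adjusted p between 1.94e-05 and 0.0931. These included plain one-way contrasts (0.0931), a fixed block for animals (0.0628) and the fits without RZ replicate 1 or 4 (0.0535 and 0.059) or IDZ replicate 1, 2 or 3 (0.0529, 0.0567 and 0.0518). Ptgs2, the inducible prostaglandin synthase, was higher in RZ by 0.58 (adjusted p = 0.0073), with 7.70 in RZ, 7.11 in IDZ and 7.64 in SZ. Mmp3, a matrix-degrading metalloproteinase, was the lower gene, at 5.65 in RZ, 6.78 in IDZ and 8.80 in SZ. Against SZ, 8 of the 20 genes were lower in RZ and 8 in IDZ, and 0 were higher in either.

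The microfibril genes after which Mfap3l is named ran lower in RZ or did not pass the test. Of 4 microfibril-associated genes measured, 2 were lower and 0 higher in RZ than in IDZ, and 3 were lower in RZ than in SZ. Mfap4, a partner of elastic fibers, averaged 8.51 ± 0.117 in RZ, 10.01 ± 0.049 in IDZ and 11.75 ± 0.077 in SZ, with no overlap between any zones. Mfap2, a core microfibril glycoprotein, averaged 10.61 in RZ, 11.24 in IDZ and 11.11 in SZ and was lower in RZ than in either. Mfap5, the relative of Mfap2, averaged 6.06 in RZ, 6.35 in IDZ and 8.61 in SZ, and passed against SZ in both zones. Mfap3, the nearest namesake of Mfap3l, averaged 8.45 ± 0.101 in RZ, 8.64 ± 0.102 in IDZ and 8.55 ± 0.449 in SZ and passed in no comparison. Among 11 fibrillins, fibulins, latent TGF-beta binding proteins and other partners, 4 were lower and 0 higher in RZ than in IDZ, and 9 were lower and 1 higher in RZ than in SZ. The 4 were Ltbp1 and Ltbp4, which hold latent TGF-beta in the matrix, Fbln5, which organizes elastic fibers, and elastin itself (Eln). Their RZ minus IDZ differences were -1.51 for Ltbp1, -1.35 for Ltbp4, -0.76 for Fbln5 and -0.49 for Eln. The Eln call (adjusted p = 0.035) failed in 10 of 20 other settings, where adjusted p ran between 0.00956 and 0.120, and the Fbln5 call (0.012) in 2 of 20, between 0.00024 and 0.0602. For Eln these included leaving out RZ replicate 1, 2 or 4 (0.118, 0.105 and 0.0858) or IDZ replicate 1, 2 or 3 (0.0966, 0.0836 and 0.120), and for Fbln5 IDZ replicate 2 (0.0515).

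**Figure D3:**
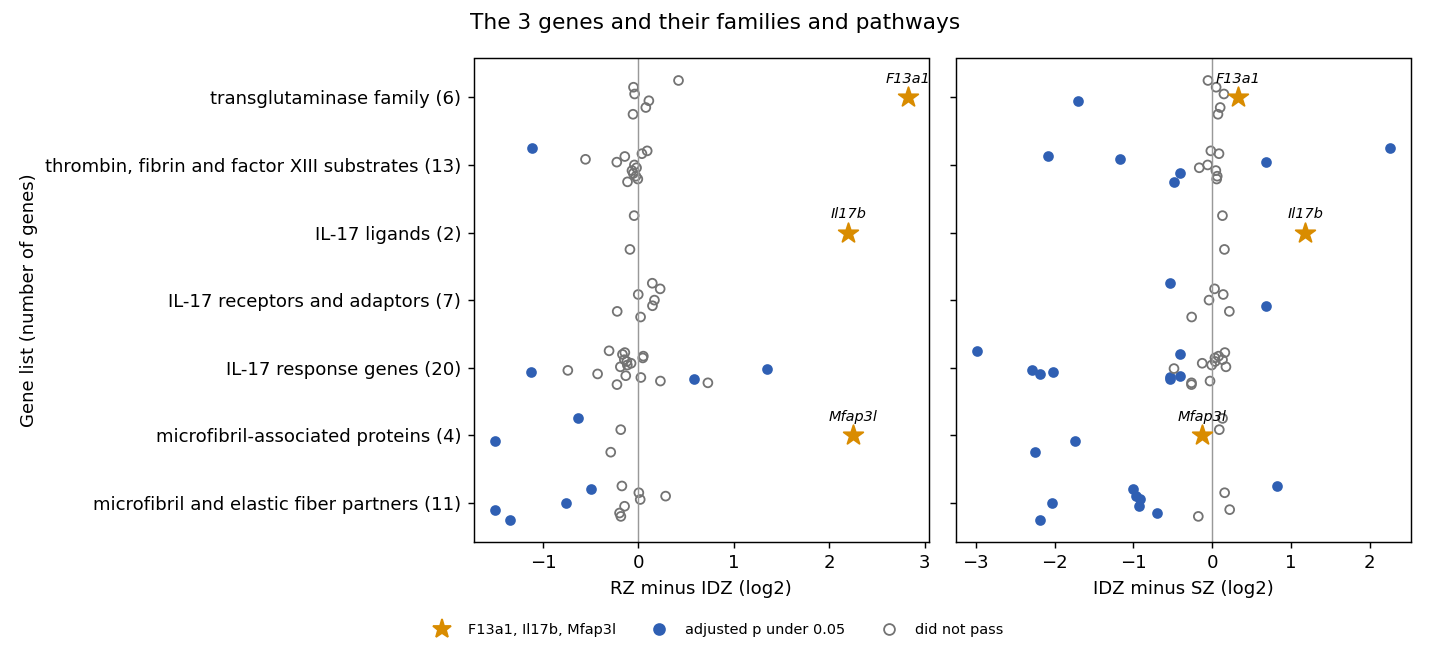
RZ minus IDZ (left) and IDZ minus SZ (right) differences of zone means (log2, x axis) for the genes of 7 lists (y axis), with the 3 members as stars beside their families. Filled points passed an adjusted p under 0.05 in limma and open points did not. On the left the members stand at 2.82, 2.20 and 2.25, while 2 genes of their lists passed above 0 (the IL-17 response genes Lcn2 at 1.35 and Ptgs2 at 0.58) and 8 passed below it.

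Because F13a1 is also carried by macrophages and platelets, the markers of these and other cells were read on the same arrays. Of 24 macrophage and myeloid genes measured, 0 were higher and 1 was lower in RZ than in IDZ. That gene was Lyve1, a hyaluronan receptor of tissue macrophages and lymphatic vessels, lower in RZ by 0.97. All 24 were lower in RZ than in SZ and all 24 were lower in IDZ than in SZ. The mean over the list was 6.21 to 6.76 in RZ, 6.54 to 6.61 in IDZ and 7.96 to 8.77 in SZ. Csf1r, the macrophage growth factor receptor, averaged 7.14 in RZ, 7.37 in IDZ and 9.80 in SZ. On the SZ arrays the list mean was 8.31, 8.77, 8.28 and 7.96 in replicates 1 to 4, the same order of arrays as for F13a1. The endothelial and neutrophil lists had that order in SZ too. In RZ the F13a1 value was highest on replicate 4 and the macrophage list on replicate 2. These orders rest on 4 arrays each and were not tested.

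Of 14 megakaryocyte and platelet markers, 7 had a cluster of their own. None of the 7 passed between RZ and IDZ (0 at an unadjusted p under 0.05 in limma), beside 3.95% of all clusters higher and 2.78% lower in RZ. Against SZ, 2 were lower in RZ and in IDZ. The list mean was 6.14 to 6.68 in RZ, 6.28 to 6.45 in IDZ and 6.40 to 6.75 in SZ. Most of the 7 averaged under 6.81, the median of all values, in every zone, so the absence of a call is weak information about them. Pf4, platelet factor 4, averaged 6.19 in RZ, 6.18 in IDZ and 6.71 in SZ. Marker levels of marrow cells varied within RZ. The mean of 8 erythroid genes was 6.83, 8.52, 8.26 and 7.70 on the RZ arrays, against 6.86, 6.93, 7.56 and 7.76 on the IDZ arrays. The mean of 9 neutrophil genes was 6.14, 7.46, 6.97 and 6.67 on the RZ arrays, against 6.13, 6.20, 6.53 and 6.76 on the IDZ arrays. None of these genes passed between RZ and IDZ in limma, and 0 had an unadjusted p under 0.05. RZ replicate 1, whose erythroid mean lay below all IDZ arrays and whose neutrophil mean lay within the IDZ range, had the lowest F13a1 and Il17b values and the highest Mfap3l value of its zone. On it F13a1 was 5.97-fold, Il17b 4.72-fold and Mfap3l 6.38-fold above IDZ of the same animals. The 10 endothelial genes and the 4 osteoclast genes measured had 0 calls between RZ and IDZ in limma, where 6 endothelial genes were lower in RZ at an unadjusted p under 0.05 and 0 osteoclast genes passed. Of 9 osteoblast genes 1 was higher in RZ than in IDZ, the bone matrix gene Ibsp, a call that failed in 8 of 20 other settings (adjusted p 0.00806 to 0.123). Of 11 genes of fibrous tissue, 5 were lower and 0 higher in RZ than in IDZ. The share of these cells in the RZ values of the members was not tested. In RNA of whole tissue, fewer cells of a type and less RNA per cell cannot be told apart.

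**Figure D4:**
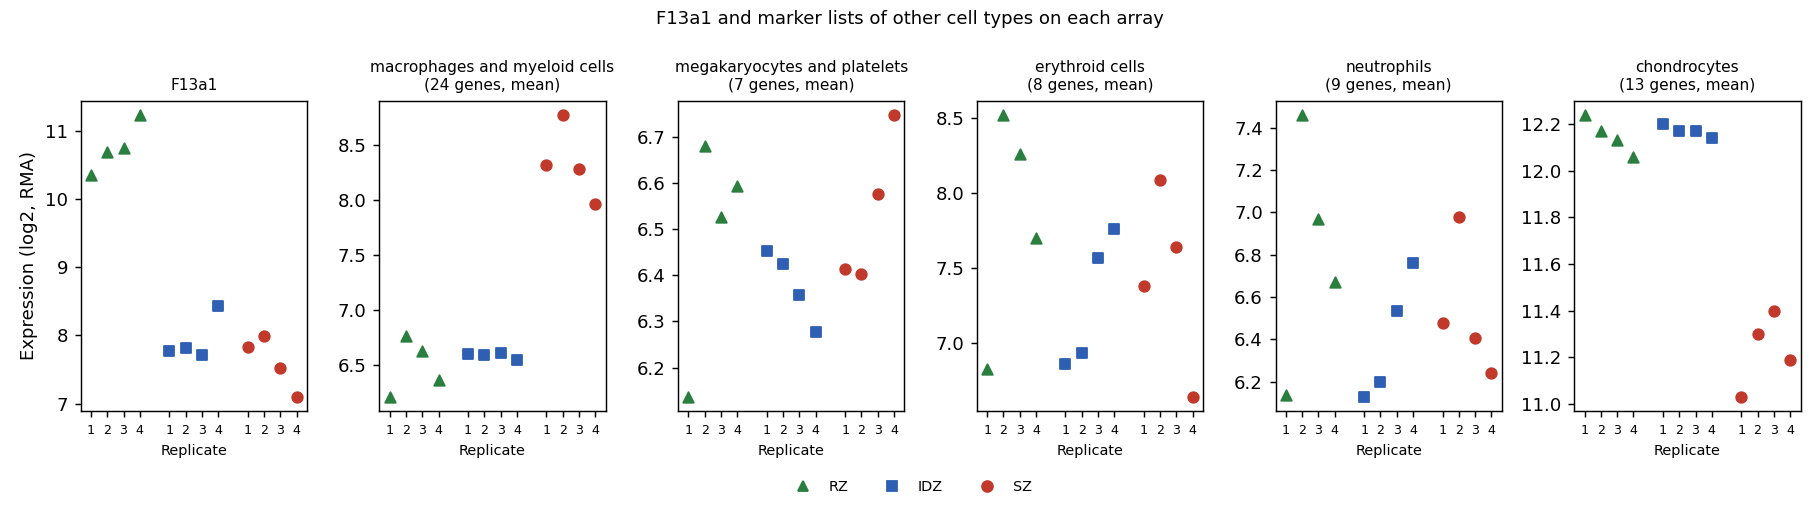
F13a1 and the mean of 5 marker lists (log2, y axis, scale differing between panels) on each array of RZ, IDZ and SZ (x axis, replicates 1 to 4). F13a1 is high on all 4 RZ arrays, while the macrophage list is highest in SZ, the erythroid and neutrophil lists spread within RZ, and the chondrocyte list is level between RZ and IDZ.

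Genes that mark the resting zone and genes of later chondrocyte stages gave the setting of the members. Of 10 resting zone markers measured, 4 were higher and 3 lower in RZ than in IDZ, beside 3.95% and 2.78% of all clusters. Against SZ, 8 were higher in RZ and 9 in IDZ. The study lists all of these markers but Ucma as differing between SZ and IDZ on these same arrays. The counts against SZ follow from that choice and have no reading. Hhip and Pthlh, also listed as markers, had no cluster of a single symbol and are not in these counts. In RZ Sfrp5 exceeded IDZ by 1.83 and the BMP family member Bmp3 by 1.44, and the BMP antagonist Grem1 was lower than in IDZ by 1.40 (8.71 in RZ, 10.10 in IDZ and 7.76 in SZ). Ucma and Pcp4 were the other 2 markers lower in RZ. Of 14 genes of hypertrophy and mineralization, 5 were higher and 1 was lower in RZ than in IDZ. Against SZ, 7 were higher and 2 lower in RZ. The gene lower than in IDZ was Ankh, at 7.77 in RZ, 8.90 in IDZ and 10.55 in SZ. Ankh and Mmp13 were the 2 lower than in SZ. Col10a1, a marker of hypertrophic chondrocytes, did not pass between RZ and IDZ (difference 0.49, limma adjusted p = 0.22). Among the genes higher in RZ, Runx2, the transcription factor of chondrocyte maturation and bone, averaged 9.60 in RZ, 8.35 in IDZ and 8.40 in SZ. Runx2 and Alpl thus were highest in RZ, as Mfap3l was. The closeness of the IDZ and SZ means of Mfap3l has no reading, because of how the gene was chosen.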

How the data were processed

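Microdissected cartilage RNA was hybridized to 12 Rat Gene 1.0 ST arrays of Affymetrix, 4 per zone. The authors made the deposited log2 values from the probe intensities with Partek Genomics Suite 6.6, by robust multi-array average with background adjustment, quantile normalization and median polish. The genome build is not given in the sources used here. Quantile normalization draws the arrays toward a common distribution, so a change in total RNA per cell does not appear. The deposited arrays still differed in interquartile range, from 2.24 to 2.91. No depth exists for arrays, and their number limits the precision.

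The platform annotation gave 1 symbol for 15068 of 27342 clusters, several for 323 and none for 11951. The brightest cluster stood for each of 14300 genes. The package limma 3.58.1 (run in R 4.3.3) fitted the 3 zone means to all arrays with moderated variances. All adjusted p are Benjamini-Hochberg values over the 27342 clusters of a comparison, with 0.05 as the threshold and no minimum fold, and were tested on simulated data first. Samples pool 2 animals in RZ and IDZ and hold 1 animal in SZ, so p rests on a spread shared by pools and single animals. The authors' one-way analysis without moderation was an alternative.

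The members and the 18 gene lists were chosen with earlier results of these data known. Genes named are the members, their 2 neighbours on each side by RZ minus IDZ difference, the 5 nearest profiles of each, up to 4 genes per list by RZ minus IDZ difference among those that passed, and the closest relatives or receptors (Tgm2, F13b, Il17rb, Mfap3). Up to 4 markers per cell type and the zone markers Prg4 and Acan are also named, as are some list genes that went the other way or did not pass. Genes with no cluster of their own symbol were not analysed here.

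RZ and IDZ samples of 1 number shared animals by the labels. After subtraction of zone means, such samples correlated at 0.018, 0.022, 0.027 and 0.205 over all clusters, with a consensus correlation of -0.141 within animal pairs, and the fit has no block. Other settings were both kinds of block, plain one-way contrasts, trended and robust variances, only the zones compared, median centring, a further quantile normalization, dim clusters left out (highest zone mean under 6.81, leaving 14791) and each array left out in turn. Promoter windows are RefSeq sequences of GRCr8, matched by symbol for 3 of 3 members. Work in Python 3.11.15 used pandas 2.3.3, numpy 2.4.6 and matplotlib 3.10.9.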

Additional observations from a re-analysis of the deposited data

Results flagged for a closer look

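Among 43 genes that comprise the members, their nearest profiles and neighbours, and genes of the lists, 12 of 129 zone groups of 4 arrays held an array far from the other 3, by Dixon's ratio of the gap to the range above its 95% critical value. Chance alone sets apart about 1 in 20 groups. For F13a1 the array was IDZ replicate 4, at 8.435, against 7.71 to 7.81 on the other IDZ arrays. The RZ sample of the same animals also had the highest F13a1 value of its zone.

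Of the IL-17 genes, Traf3 was lowest on IDZ replicate 3 (7.90, others 8.06 to 8.09), Mmp3 highest on RZ replicate 2 (5.845, others 5.58 to 5.61) and Ptgs2 lowest on SZ replicate 4 (7.33, others 7.72 to 7.76). Of the microfibril genes, Ltbp4 was lowest (8.005, others 8.21 to 8.23) and Mfap3 highest (8.79, others 8.57 to 8.60) on IDZ replicate 4. Bmp3 was lowest on RZ replicate 3 (11.14, others 11.31 to 11.35) and Runx2 on RZ replicate 4 (9.50, others 9.62 to 9.64).

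Of the genes near the members, Fa2h was set apart in 2 zones, lowest on RZ replicate 3 (7.60, others 8.18 to 8.28) and highest on SZ replicate 4 (6.02, others 5.44 to 5.54). Adgrb1 was highest on RZ replicate 1 (9.50, others 9.24 to 9.27) and Slc40a1 on RZ replicate 4 (10.91, others 10.52 to 10.55).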

How the results depend on the processing

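No difference of F13a1, Il17b or Mfap3l between zones changed direction in any of the settings run, and IDZ minus SZ, the one tested, kept its side of the threshold for each. With 1 array left out at a time, the RZ minus IDZ difference was 2.66 to 2.99 for F13a1, 2.11 to 2.30 for Il17b and 2.14 to 2.36 for Mfap3l. RZ minus SZ was 2.98 to 3.28, 3.30 to 3.46 and 1.99 to 2.25 for the same genes. IDZ minus SZ was 0.15 to 0.45 for F13a1, 1.08 to 1.27 for Il17b and -0.26 to -0.0025 for Mfap3l. Each member has 1 cluster, so another cluster could not be tried.

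Of the 63 pathway and family genes measured in the 7 lists, 2 were higher in RZ than in IDZ, and 1 was with plain one-way contrasts and 1 with the fixed replicate block for animals, where Lcn2 was lost. Leaving out 1 array gave 1 to 2 genes higher and 6 to 8 lower in RZ than in IDZ (8 with all arrays), 3 to 7 higher and 25 to 27 lower in RZ than in SZ (4 and 25 with all arrays), and 4 to 9 higher and 20 to 26 lower in IDZ than in SZ (4 and 23 with all arrays). The counts of 7 and 9 came without SZ replicate 4. Apart from Lcn2, the F5 call between RZ and SZ and the Eln call between RZ and IDZ, the fixed block changed no call named here. The random block ended those of Eln and Ibsp.

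Over all clusters, 1080 were higher in RZ than in IDZ, against 2435 with only those zones fitted, 647 with the fixed block and 634 to 2353 with 1 array left out. In the other direction 760 were lower, against 503 after median centring, 1711 with only those zones fitted and 458 to 1572 with 1 array left out. With the fixed block 1899 clusters were higher in RZ than in SZ (3026 without it) and 1737 higher in IDZ than in SZ (3064 without it). Without SZ replicate 4, 6414 were higher and 4953 lower in IDZ than in SZ (3064 and 3226 with it). The mean of RZ and IDZ exceeded SZ in 3523 clusters, against 2147 with the fixed block and 6146 without SZ replicate 4. The cause was not tested.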
